A study of Mus musculus with 2 samples.

Results

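The cells described here are non-cycling mast cells that hold transcripts of Slc6a4, the serotonin transporter, and Ctse, the aspartic protease cathepsin E. They were chosen from the counts themselves. Among barcodes that passed the quality filters, mast cells were those with at least 1.5% of their transcripts from Cpa3 and Cma1 together and almost none from complement C1q or fibrillar collagen genes. A mast cell counted as non-cycling when at most 1 of 6 proliferation genes (Mki67, Top2a, Birc5, Cdk1, Ube2c, Cenpf) was detected. It was then kept when it had at least 3 unique molecular identifiers (UMIs, each marking 1 captured RNA molecule) of Slc6a4 and Ctse together and more of these than of the receptor genes Mrgprb1 and Mrgprb2. The rule kept 2144 of 17296 non-cycling mast cells (12.4%, 95% interval 11.9–12.9), out of 24344 mast cells, 33964 barcodes past the filters and 34813 barcodes in all. They are called Slc6a4/Ctse cells below.

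All cells came from 1 droplet library of cultured macrophage colonies, termed CFU-M in the labels. The labels give the source as aorta of 2 C57BL/6J mice, both male and 12 weeks old, digested and plated in methylcellulose, a gel-like medium, where colonies formed over 14 days. Dispersed colony cells that excluded the dye DAPI were sorted, marked with MULTI-seq lipid-anchored tags, pooled and captured with the 10x 3′ v3.1 chemistry. The labels name no genetic change and no treatment, and the cells of the mice cannot be told apart from them. With 1 library there is no replicate and no test: every interval below is a 95% interval for counting error only, and UMIs of 1 library do not show how another culture would vary. The library held 593248944 gene UMIs, with a median of 13116 per barcode, and all 34813 barcodes were distinct.

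Mast cells are tissue-resident cells of the blood lineage that store proteases, histamine and, in rodents, serotonin in granules and release them when their high-affinity IgE receptor is cross-linked. Histamine is made by histidine decarboxylase (Hdc), serotonin by tryptophan hydroxylase (Tph1) and aromatic amino acid decarboxylase (Ddc), and both are loaded into granules by the vesicular monoamine transporter (Slc18a2), while the serotonin transporter takes serotonin back up from outside the cell. Connective tissue mast cells of the mouse are known for chymase, tryptase, carboxypeptidase A and Mrgprb receptors, the last of which respond to cationic peptides and drugs, whereas mucosal mast cells carry another set of chymases.

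The comparison was with the other 15152 non-cycling mast cells. Of these, 5238 had at least 3 UMIs of Mrgprb1 and Mrgprb2 together and more of them than of Slc6a4 and Ctse (Mrgprb cells below). The remaining 9914 are called cells low in both pairs. They include some cells with equal counts of 3 or more UMIs of each pair, such as 94 cells with 3 of each. Levels are summed UMIs of a gene per 1000000 summed gene UMIs (CPM). Since a cell needs 3 UMIs to be chosen, deeper cells pass more easily. The Slc6a4/Ctse cells had a median of 11879 gene UMIs per cell (quartiles 8287.5 and 16556), against 9662 in the other non-cycling mast cells, 9956.5 in the Mrgprb cells and 9531 in the cells low in both pairs. Shares of cells with a UMI are therefore also given after each cell was thinned to 5500 UMIs, which left out 106 Slc6a4/Ctse cells and 1372 of the others.

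The choice rested on few molecules per cell. Of the 2144 cells, 1009 (47.1%) had exactly 3 UMIs of the pair, 586 (27.3%) had 5 or more and 29 (1.35%) had 10 or more. Just outside the threshold lay 1803 cells with 2 UMIs of the pair and fewer of Mrgprb1 and Mrgprb2. A further 899 cells had at least 3 UMIs of the pair but no more than of the Mrgprb pair. At the other end, 6384 non-cycling mast cells (36.9%) had no UMI of either gene. The plot of both gene pairs shows no gap at the threshold. Cells with exactly 3 UMIs had a median depth of 11397 gene UMIs, and those with 2 UMIs had 10544.

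**Figure D1:**
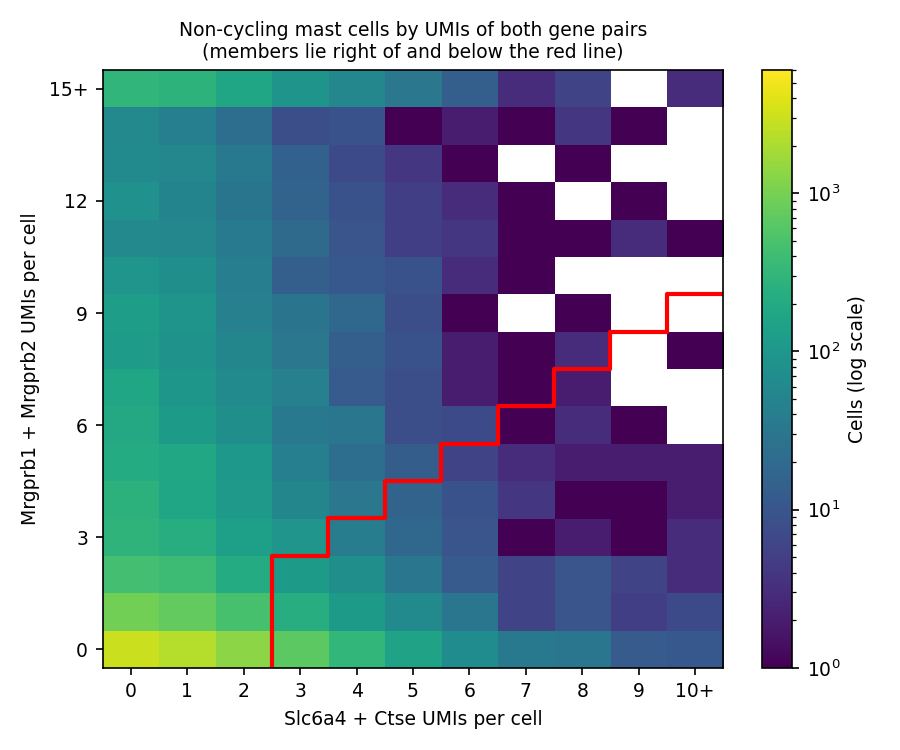
Number of non-cycling mast cells (colour, log scale) by UMIs per cell of Slc6a4 and Ctse together (x axis) and of Mrgprb1 and Mrgprb2 together (y axis), with the last step of each axis holding all higher counts. The 2144 chosen cells lie right of and below the red line, and cells lie on both sides of the line without a gap.

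The genes that the rule used have these levels, given as a description. Slc6a4 (ENSMUSG00000020838, chromosome 11, 76998603–77032340, plus strand, GRCm38) stood at 233 CPM (228–239) in the Slc6a4/Ctse cells and at 58.4 CPM (57.3–59.6) in the other non-cycling mast cells. It stood at 70.8 CPM in the Mrgprb cells and at 51.6 CPM in the cells low in both pairs. The transporter was thus detected in every group of mast cells. It had 20.9 CPM in macrophage barcodes of the same library and 10.9 CPM in fibroblast barcodes. These barcodes serve as a rough measure of free RNA in droplets, but doublets with mast cells were not removed from them. At 5500 UMIs per cell a Slc6a4 UMI was found in 74.1% of Slc6a4/Ctse cells and 27.5% of the others, beside 8.95% of macrophage barcodes and 5.01% of fibroblast barcodes. Before thinning the shares in mast cells were 96.5% and 44.7%. Median depth before thinning was 8209 gene UMIs in the macrophage and 29646.5 in the fibroblast barcodes. The gene Gm12343 overlaps Slc6a4 on the opposite strand, and whether counting used strand is not given in the sources used here.

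Ctse (ENSMUSG00000004552, chromosome 1, 131638306–131675505, plus strand) stood at 81.9 CPM (78.6–85.4) in the Slc6a4/Ctse cells and 26.6 CPM (25.8–27.4) in the others, with 34.4 CPM in the Mrgprb cells and 22.3 CPM in the cells low in both pairs. Macrophage barcodes had 10.97 CPM and fibroblast barcodes 4.14 CPM. After thinning, 38.0% of Slc6a4/Ctse cells and 14.2% of the others had a Ctse UMI (62.5% and 24.1% before), beside 4.80% of macrophage and 2.30% of fibroblast barcodes. Most of the selection came through the transporter gene. Of the 2144 cells, 805 (37.5%) had Slc6a4 UMIs alone, 75 (3.50%) had Ctse UMIs alone and 1264 (59.0%) had both. The receptor genes stood where the rule put them, with Mrgprb1 at 23.4 CPM against 639 CPM in the Mrgprb cells and 19.5 CPM in the cells low in both pairs, and 60.2% of the chosen cells had no Mrgprb1 or Mrgprb2 UMI.

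Whether both genes go together was read from all non-cycling mast cells at 5500 UMIs, without the rule. A Ctse UMI was found in 19.985% (18.9–21.1) of the 5294 cells with a Slc6a4 UMI and in 15.8% (15.1–16.6) of the 10524 cells without. In the other direction, Slc6a4 was found in 38.8% of cells with and 32.4% of cells without a Ctse UMI. Across the cells, the shares of UMIs from the 2 genes had a Pearson correlation of 0.105 and a Spearman correlation of 0.0846. This is a description over sparse counts of cells that share 1 library, and so weak a correlation is no finding. Mrgprb1 was found in 31.4% (30.1–32.6) of cells with a Slc6a4 UMI and 32.7% (31.8–33.6) of cells without. With Ctse the shares were 35.0% (33.2–36.8) and 31.7% (30.9–32.5). The low Mrgprb level of the chosen cells is therefore a condition of the rule and no finding.

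To read the pair in molecules that did not choose the cells, the UMIs of each cell were split at random into 2 sets of equal expected size. Cells were binned by the pair in the first set and measured in the second set, and cells with UMIs of the pair entered a bin only if the pair exceeded the Mrgprb pair there. From 0 to 1, 2, 3 and at least 4 UMIs in the first set, Slc6a4 in the second set stood at 64.7, 93.9, 111, 159 and 235 CPM, in 9875, 2672, 1250, 453 and 251 cells. Ctse stood at 28.5, 33.9, 37.1, 54.2 and 66.0 CPM in the same bins. Both genes were higher with each step in molecules the binning did not use. Median depth was also higher with each step, from 9267 to 12894 gene UMIs per cell, and its part in the result was not tested.

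**Figure D2:**
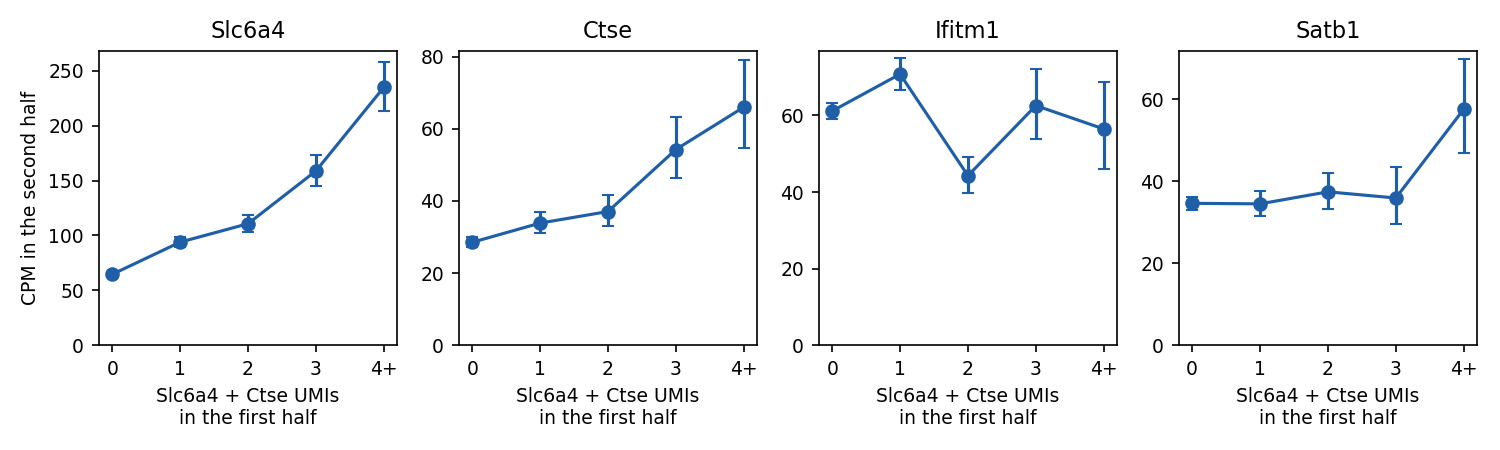
CPM in the second random set of each cell's UMIs (y axis, from 0, points with 95% Poisson intervals) of Slc6a4, Ctse, Ifitm1 and Satb1, for cells binned by their Slc6a4 and Ctse UMIs in the first set (x axis). Slc6a4 climbs from 64.7 to 235 CPM and Ctse from 28.5 to 66.0 CPM, while Ifitm1 shows no order and Satb1 is higher in the last bin alone.

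The name under which these cells were proposed also lists Ifitm1, an interferon-inducible membrane protein gene, and Satb1, which encodes a chromatin organizer. Ifitm1 (ENSMUSG00000025491, chromosome 7, 140967221–140969825, plus strand) did not bear out the name. It stood at 59.5 CPM (56.7–62.5) in the Slc6a4/Ctse cells and 56.9 CPM (55.8–58.0) in the other non-cycling mast cells, a log2 ratio of 0.07 (−0.01 to 0.14). The cells low in both pairs had more, 66.5 CPM, and the Mrgprb cells had 39.5 CPM. At 5500 UMIs it was found in 7.26% of Slc6a4/Ctse cells and 7.08% of the others (11.4% and 9.45% before thinning), beside 2.13% of macrophage and 3.79% of fibroblast barcodes. In the held-out set its level was 61.1, 70.8, 44.3, 62.6 and 56.5 CPM over the bins, in no order.

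Ifitm1 UMIs were concentrated in few cells of every group. At least 10 UMIs were found in 52 Slc6a4/Ctse cells (2.43%, 1.82–3.17), which held 75.6% of the Ifitm1 UMIs of the group. Among the other non-cycling mast cells, 292 (1.93%, 1.71–2.16) held 73.5%, and the highest count in a cell was 76 and 103 UMIs, respectively. A small Ifitm1-high population thus lay on either side of the rule. Its close relatives Ifitm2 (1175 against 1143 CPM) and Ifitm3 (93.9 against 103 CPM) differed by less than 1.5 times as well, and how reads shared by such copies were counted is not given in the sources used here.

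Satb1 (ENSMUSG00000023927, chromosome 17, 51736187–51833290, minus strand) stood at 42.1 CPM (39.7–44.6) in the Slc6a4/Ctse cells and 36.2 CPM (35.3–37.1) in the others, a log2 ratio of 0.22 (0.13 to 0.31). The Mrgprb cells had 44.6 CPM and the cells low in both pairs 31.6 CPM, so the chosen cells were above the latter alone. After thinning, Satb1 was found in 22.4% of Slc6a4/Ctse cells and 17.8% of the others (38.4% and 29.6% before), beside 4.50% of macrophage and 3.49% of fibroblast barcodes. Apart from the rule, 21.6% (20.5–22.8) of cells with a Slc6a4 UMI had Satb1, against 16.7% (15.99–17.4) of cells without. With Ctse the shares were 23.3% and 17.3%. In the held-out set Satb1 stayed between 34.5 and 37.4 CPM up to 3 UMIs of the pair and reached 57.6 CPM (47.0–69.8) at 4 or more. Ifitm1, in contrast, was in 6.57% of cells with and 7.37% of cells without Slc6a4, and in 8.59% with and 6.80% without Ctse.

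Few genes beyond the pair differed by much between the Slc6a4/Ctse cells and the other mast cells. Of 5639 genes with at least 20 CPM in the higher group, 20 were higher by 1.5 times or more, which is 0.355%, and 22 were lower by as much, which is 0.39%. Of these, 2 and 2 are genes of the rule. A further 3 of the 20, Hbb-bs, Hbb-bt and Hba-a2, passed through 1 barcode described below, and 17 were higher without them. By a ratio of 2, 2 genes were higher (0.0355%) and 6 lower (0.106%). The ratio lay within 10% of 1 for 73.5% of genes and within 20% for 93.5%, and the median log2 ratio over all genes was 0.01. A ratio above 1 was found for 54.6% of genes, from 28.7% of those with an annotated span under 5 kb to 79.0% of those over 300 kb, and the counts above and below 1 in the lists below are to be read against these shares. Since the rule and these ratios come from the same counts, the lists below describe the chosen cells and support nothing.

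Among genes with at least 50 CPM, the highest ratios belonged to Nlgn1, which encodes the synaptic adhesion protein neuroligin (66.3 against 37.6 CPM, log2 ratio 0.82, 0.74 to 0.89), Dnah7b, an axonemal dynein (56.3 against 33.8 CPM), and Atp8a2, a phospholipid flippase (121 against 73.0 CPM). Auts2 followed with 73.4 against 48.7 CPM. Below the 1.5-fold mark came 2 adaptor genes best known from T cell receptor signalling, Grap2 (105 against 69.8 CPM) and Skap1 (102 against 69.7 CPM). The small-GTPase regulators Agap1 (300 against 209 CPM) and Tiam2 (124 against 89.8 CPM) and the DNA repair gene Rad51b (612 against 441 CPM) were among the most abundant of these genes. Lhfp, Stmn2, Dnah14, Tesk2 and Gga2 completed the 14, all between 1.34 and 1.39 times the level of the others.

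A further gene among the 15 with the highest ratio, Hbb-bs (beta globin), rested on 1 barcode. That barcode held 2374 of the 3859 Hbb-bs UMIs of the group (61.5%). Without the highest barcode of each group, Hbb-bs stood at 52.8 CPM in the Slc6a4/Ctse cells and 70.0 CPM in the others, so the direction turned. With all barcodes, Hbb-bt, Hba-a1 and Hba-a2 had 20.3, 45.8 and 33.4 CPM in the Slc6a4/Ctse cells. Without the same barcodes, Hbb-bt stood at 10.3 against 9.11 CPM, Hba-a1 at 27.2 against 26.8 CPM and Hba-a2 at 17.3 against 19.2 CPM. Macrophage barcodes had 1411 CPM of Hbb-bs.

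The lowest ratios belonged to Slc6a13, a transporter of gamma-aminobutyric acid and taurine that is among the connective tissue mast cell genes listed (25.3 against 58.5 CPM, log2 ratio −1.21, −1.32 to −1.10), and Serpina3g, a serine protease inhibitor (39.5 against 79.6 CPM, log2 ratio −1.01). The monocyte chemoattractant Ccl7 stood at 332 CPM against 606 CPM. Then came Cacnb4, a calcium channel subunit (84.8 against 151 CPM), Fut8, which adds core fucose to glycoproteins (146 against 245 CPM), Klf2, a Krüppel-like transcription factor (224 against 368 CPM), and Neb, which encodes nebulin (120 against 195 CPM). Syngr1 (50.4 against 77.7 CPM) and Nampt, an enzyme of NAD synthesis (158 against 241 CPM), were the last below the 1.5-fold mark among genes with at least 50 CPM. Rnase6, Phlda1, AI593442, Pilrb2, Xist and Dusp23 lay between 0.680 and 0.726 times the level of the others.

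**Figure D3:**
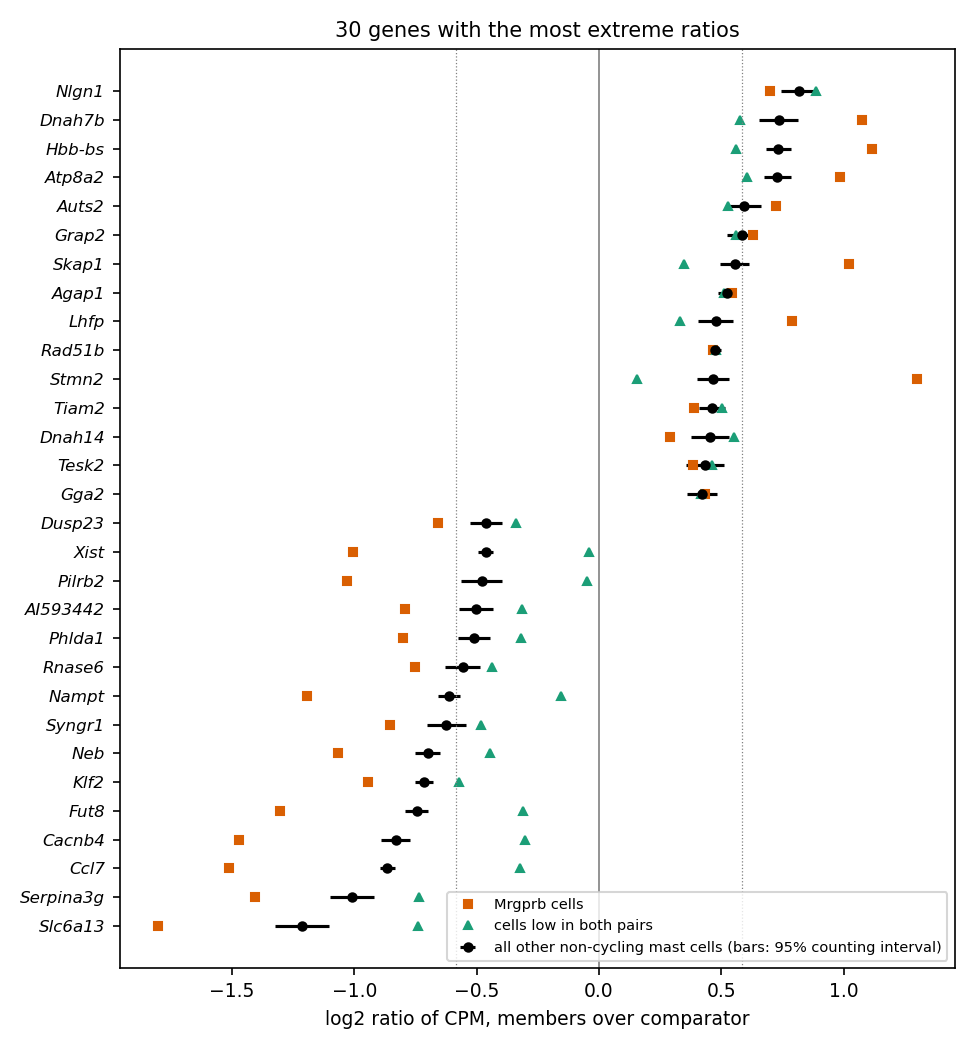
Log2 ratio of CPM, Slc6a4/Ctse cells over all other non-cycling mast cells (black, bars are 95% counting intervals), over Mrgprb cells (squares) and over cells low in both pairs (triangles), for the 15 genes with the highest and the 15 with the lowest ratio among genes with at least 50 CPM; dotted lines mark 1.5 times. Most low ratios lie farther from 0 against Mrgprb cells than against cells low in both pairs, as for Ccl7, Nampt and Xist, whereas Agap1 and Rad51b lie at about the same place in either comparison.

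The number of genes past the mark differed with the mast cells used as the comparison. Against the Mrgprb cells, 63 of 5744 genes were higher by 1.5 times or more (1.1%) and 138 were lower (2.4%), and by a ratio of 2 these were 18 (0.313%) and 49 (0.853%). Against the cells low in both pairs, 9 of 5629 genes were higher (0.16%) and 2 were lower (0.0355%). The 9 included Slc6a4, Ctse, the phosphodiesterase gene Pde7b (30.8 against 16.04 CPM), Nlgn1, Hbb-bt (through the barcode rich in globin), the interleukin 1 receptor subunit gene Il1rap, the transcriptional repressor gene Bach2 (60.1 against 39.2 CPM) and Atp8a2. The 2 were Serpina3g (39.5 against 65.8 CPM) and Slc6a13 (25.3 against 42.2 CPM). When cells were chosen by at least 3 UMIs of the pair whatever their Mrgprb UMIs, 7 of 5655 genes were higher (0.124%) and 3 lower (0.0531%) than in the remaining non-cycling mast cells, the pair included.

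The Mrgprb cells differed from the Slc6a4/Ctse cells in a set of abundant genes. Cathepsin G (Ctsg), a granule protease, had 262 CPM in the Slc6a4/Ctse cells and 75.1 CPM in the Mrgprb cells. The cells low in both pairs had the highest level, 316 CPM. The calcium-binding protein gene S100a6 stood at 1980 against 1088 CPM, Ly6a, which encodes the surface protein Sca-1, at 841 against 519 CPM, granzyme B (Gzmb) at 625 against 401 CPM and Stmn2 at 81.0 against 32.9 CPM. In the other direction, Ccl7 stood at 332 against 949 CPM, Cacnb4 at 84.8 against 235 CPM, Fut8 at 146 against 362 CPM, Nampt at 158 against 361 CPM and the ryanodine receptor gene Ryr3 at 115 against 231 CPM. For Ccl7, Cacnb4, Fut8 and Nampt the cells low in both pairs lay between these levels, at 416, 105, 182 and 176 CPM. For Ly6a, Gzmb and Stmn2 they stood at 784, 609 and 72.8 CPM, closer to the Slc6a4/Ctse cells than to the Mrgprb cells.

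The core genes of mast cells differed little by the rule. Of 14 core mast cell genes, none passed 1.5 times in either direction, and their median log2 ratio was −0.01. Cpa3 (18355 against 19443 CPM) and Cma1 (23279 against 24340 CPM), which the rule used, and the chymase gene Mcpt4 (10379 against 10429 CPM) were among the most abundant transcripts. The stem cell factor receptor Kit stood at 1608 against 1440 CPM, the IgE receptor alpha chain Fcer1a at 3800 against 4070 CPM, and the transcription factors Gata2 and Mitf at 757 against 707 CPM and 236 against 212 CPM. Among 10 connective tissue mast cell genes, 3 were lower past 1.5 times, namely Slc6a13 and the rule's own Mrgprb1 and Mrgprb2.

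In the 7 mucosal mast cell genes at 20 CPM or more, none passed 1.5 times, and 6 had a ratio above 1 with a median log2 ratio of 0.18. They included Gzmb (625 against 535 CPM), the receptor genes Tgfbr1 (724 against 626 CPM) and Tgfbr2 (95.4 against 84.2 CPM), and Cd96 (40.0 against 30.1 CPM). In the cells low in both pairs Gzmb stood at 609 CPM. Il18r1 was the one below 1 (137 against 160 CPM). Levels of the listed chymase genes Mcpt1, Mcpt2 and Mcpt9 are not given here, so these values do not place the cells as mucosal. Of 10 granule protease genes, 1 was past 1.5 times, the tryptase-like gene Prss34 at 30.9 against 47.9 CPM. Tpsab1 stood at 49.0 against 39.2 CPM and Tpsg1 at 508 against 567 CPM.

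Of 17 other listed genes of serotonin and histamine handling, 8 had at least 20 CPM. None of these 8 passed 1.5 times against the other non-cycling mast cells, and the median log2 ratio was −0.02. Tph1, which makes the first step to serotonin, stood at 2846 CPM (2827–2866) against 2672 CPM (2665–2680), and Ddc at 182 against 160 CPM. Hdc stood at 1103 against 1119 CPM. The vesicular transporter Slc18a2 stood at 434 CPM in the Slc6a4/Ctse cells, 420 CPM in the cells low in both pairs and 676 CPM in the Mrgprb cells, and was past the mark against the last. Monoamine oxidase B (Maob), which breaks amines down, stood at 352 against 373 CPM, and Gch1, which makes the cofactor of tryptophan hydroxylase, at 180 against 199 CPM. The low-affinity amine transporters Slc22a3 and Slc29a4 had no UMI in the 28118153 gene UMIs of the Slc6a4/Ctse cells, which allows up to 0.107 CPM.

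Lysosomal cathepsins were somewhat lower in the Slc6a4/Ctse cells. None of the 8 lysosomal cathepsin and cystatin genes at 20 CPM or more passed 1.5 times, and all 8 had a ratio below 1, with a median log2 ratio of −0.11. Cathepsin D (Ctsd), an aspartic protease like cathepsin E, stood at 589 CPM (580–598) against 704 CPM (700–708). Ctsc, which activates granule proteases, stood at 167 against 180 CPM, and Ctsl at 28.9 against 34.8 CPM. The difference varied with the comparison. In the cells low in both pairs Ctsc stood at 164 CPM and Ctsd at 668 CPM, and in the Mrgprb cells at 210 and 768 CPM.

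Of 18 genes of IgE receptor signalling, 13 had a ratio above 1, and their median log2 ratio was 0.08. The phosphatase Inpp5d stood at 480 against 406 CPM, Fyn at 79.6 against 66.4 CPM and Gab2 at 510 against 461 CPM. Of 17 cytokine receptor genes, 1 passed, Il1rap at 37.6 CPM (35.3–39.9) against 23.7 CPM (22.9–24.4). Its product pairs with the interleukin 33 receptor, whose gene Il1rl1 stood at 2343 against 2425 CPM. Il1rap was also past the mark against the cells low in both pairs, at 23.1 CPM there.

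Of 23 lineage transcription factor genes, none passed 1.5 times and 18 had a ratio above 1, with a median log2 ratio of 0.11. Meis2 stood at 555 against 454 CPM, Erg at 73.3 against 57.8 CPM and Bhlhe40 at 209 against 251 CPM. Of 10 eicosanoid genes, 1 passed, the cyclooxygenase gene Ptgs1 at 25.1 against 40.0 CPM, while the prostaglandin D synthase Hpgds stood at 122 against 98.2 CPM and the leukotriene enzyme Alox5 at 420 against 482 CPM. Among 11 cytokine genes, 10 had a ratio below 1 and the median log2 ratio was −0.19. Ccl7 passed, and Ccl2 stood at 1787 against 2172 CPM, Il4 at 127 against 152 CPM and Lif at 23.4 against 28.4 CPM. Tnf was the exception above 1 (149 against 123 CPM). Of 15 immediate early genes, Klf2 passed and 12 had a ratio below 1.

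Since the rule favours deep cells, it was also applied after thinning every cell to 5500 UMIs. It then kept 707 of 15818 cells (4.47%, 4.15–4.80). Of these, 656 (92.8%) were Slc6a4/Ctse cells, and they made up 32.2% of the 2038 Slc6a4/Ctse cells of that depth. The 707 cells were shallower before thinning than the others, with medians of 8840 and 10521 UMIs, the reverse of the difference above. Against the other thinned cells, 100 of 5758 genes were higher by 1.5 times or more (1.74%) and 67 lower (1.16%). More genes were past the mark than under the rule at full depth, again as a description with no test. These counts are not alike, since 3 of 5500 UMIs is a larger share of a cell than 3 UMIs of a deeper cell. Slc6a4 stood at 489 CPM in the 707 cells, against 233 CPM in the Slc6a4/Ctse cells. The 707 cells also hold fewer UMIs in sum, so ratios near 20 CPM carry more counting error.

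At the fixed depth Satb1 stood at 68.2 CPM (60.2–76.9) against 38.5 CPM (37.2–39.8), a log2 ratio of 0.82 (0.64 to 1.01), and Ifitm1 stood at 63.8 CPM against 64.0 CPM. Satb1 was thus past the 1.5-fold mark in this choice of cells, and the interval of the Ifitm1 log2 ratio (−0.19 to 0.18) included 0. Nlgn1 (99.5 against 37.9 CPM) had the highest ratio among genes with at least 50 CPM, followed by Bach2 (109 against 54.2 CPM), Atp8a2 (148 against 74.7 CPM), the immune checkpoint ligand gene Cd274 (105 against 56.1 CPM) and Grap2 (134 against 72.0 CPM). Il1rap stood at 49.9 against 25.8 CPM. Kit (1826 against 1468 CPM) and Hdc (1426 against 1152 CPM) were each 1.24 times as high, Tph1 stood at 2873 against 2683 CPM and Cma1 at 25826 against 25218 CPM. Ctsg turned direction, with 150 against 200 CPM.

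Among the genes lower at the fixed depth were again Cacnb4 (59.4 against 144 CPM), Serpina3g (33.4 against 78.2 CPM), Neb (82.3 against 188 CPM), Klf2 (191 against 381 CPM) and Ccl7 (324 against 594 CPM). The 15 lowest also held Nme1, a nucleoside diphosphate kinase (163 against 268 CPM), Nhp2, a part of small nucleolar ribonucleoproteins (34.7 against 61.8 CPM), and Xbp1, a transcription factor of the unfolded protein response (46.3 against 77.4 CPM). Ribosomal protein genes made up 17.8% of UMIs against 19.2%, and 73 of the 86 measured were below 1 in ratio, with none past 1.5 times. Listed genes past the mark upward included Bach2 among the lineage transcription factors, Cdkn2c among cell cycle inhibitors, Kif23 among mitosis genes, Il1rap, Satb1, Uty and the pair itself.

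Several of the genes with high ratios, such as Nlgn1, Agap1, Auts2 and Rad51b, are very long. Over genes grouped by annotated span (under 5, 5 to 20, 20 to 100, 100 to 300 and over 300 kb), the median log2 ratio of the Slc6a4/Ctse cells over the others was −0.05, −0.03, 0.03, 0.10 and 0.14. Against the cells low in both pairs it went from −0.10 to 0.29, and at the fixed depth from −0.11 to 0.24. Against the Mrgprb cells it went the other way, from 0.04 to −0.05. Across 5629 genes, which are not independent, the Spearman correlation of span and log2 ratio was 0.402. Malat1, a long noncoding RNA that stays in the nucleus, moved along, with 26455 against 24401 CPM, with 31442 against 25088 CPM at the fixed depth, and from 23820 to 28167 CPM over the held-out bins. Agap1 went from 198 to 358 CPM over the same bins. Median mitochondrial shares were 2.45% and 2.05% of UMIs, and all 13 mitochondrially encoded genes had a ratio above 1 (median log2 ratio 0.18). The part of gene length, nuclear RNA and mitochondrial RNA in the ratios was not tested.

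**Figure D4:**
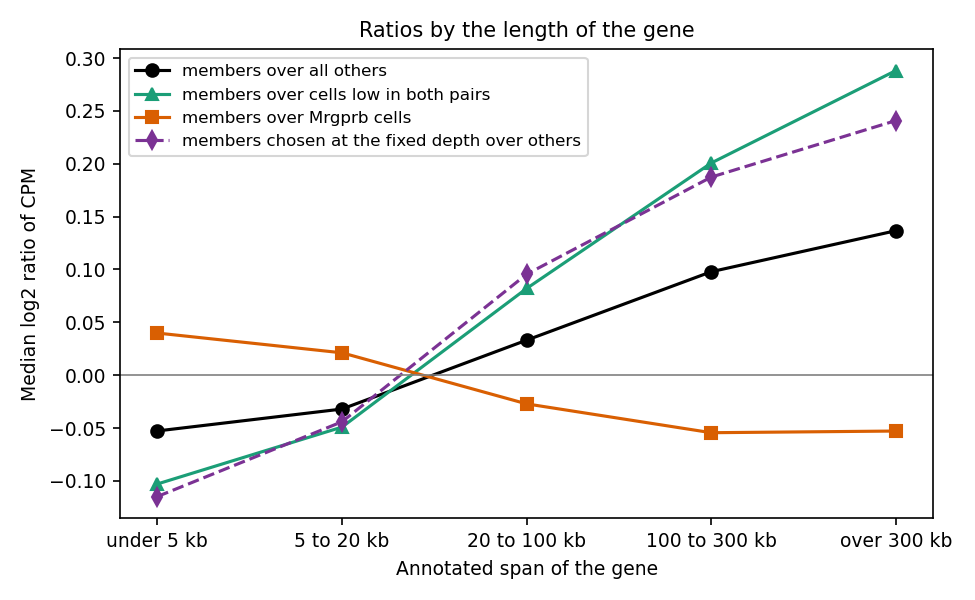
Median log2 ratio of CPM (y axis) over genes grouped by annotated span (x axis), for the Slc6a4/Ctse cells over all other non-cycling mast cells, over cells low in both pairs and over Mrgprb cells, and for cells chosen at the fixed depth over the others. The medians run from −0.05 to 0.14 against all others and the other way, from 0.04 to −0.05, against Mrgprb cells.

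The library is labelled as coming from male mice, yet Xist, the RNA that coats the inactive X chromosome in female cells, was found in all groups. Cells were therefore split by their UMIs of Xist and of 4 Y-linked genes (Ddx3y, Eif2s3y, Kdm5d, Uty), none of which the rule used. Of the Slc6a4/Ctse cells, 35.1% (33.1–37.1) had at least 2 Xist UMIs and no Y-linked UMI, 20.2% (18.5–22.0) had a Y-linked UMI and no Xist, 15.6% had both and 29.1% had neither or 1 Xist UMI. The cells low in both pairs had 40.7% (39.7–41.6) and 14.2% (13.6–14.9) in the first and second class. The Mrgprb cells stood farther off, with 71.6% (70.3–72.8) and 4.12% (3.60–4.70).

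Seen by class, the Slc6a4/Ctse cells made up 8.81% (8.22–9.44) of the 8532 non-cycling mast cells with Xist alone and 21.01% (19.3–22.8) of the 2061 with Y-linked transcripts alone. Mrgprb cells made up 43.9% and 10.5% of the same classes. Without the Mrgprb condition, at least 3 UMIs of the pair were found in 15.6% and 24.3%. Over all non-cycling mast cells, Slc6a4 stood at 73.2 CPM (71.5–74.9) in the Xist class and 110 CPM (106–115) in the Y-linked class, at median depths of 10104 and 9696 UMIs, while Mrgprb1 stood at 311 and 59.8 CPM and Ctsg at 117 and 322 CPM. The 4 Y-linked genes together had 68.9 CPM in the Slc6a4/Ctse cells, 40.4 CPM in the others, 26.6 CPM in the Mrgprb cells and 48.1 CPM in the cells low in both pairs. Xist had 339, 467, 682 and 349 CPM in the same order.

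**Figure D5:**
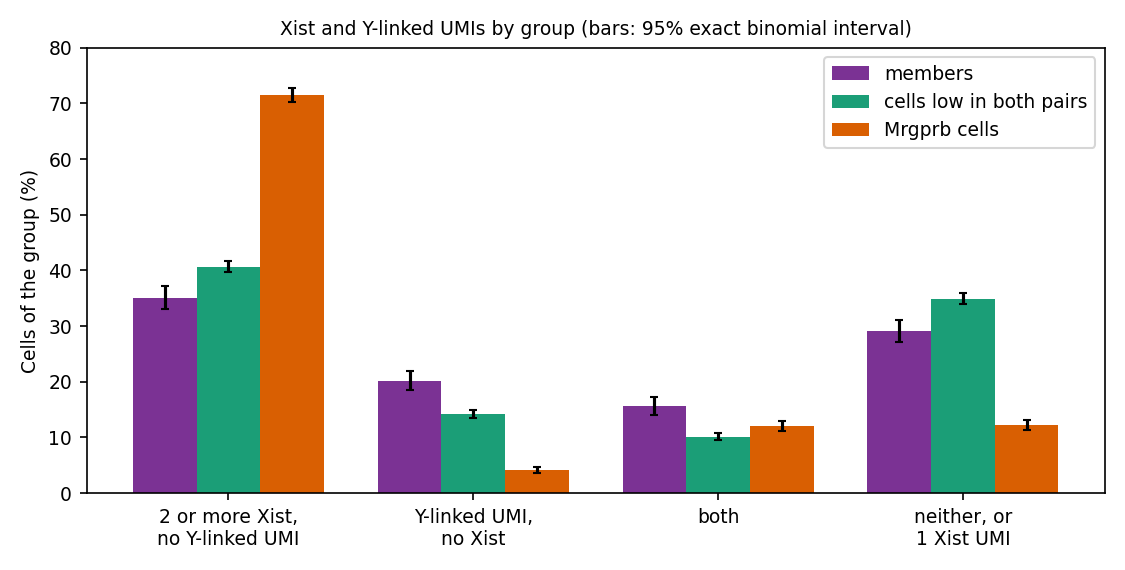
Share of each group's cells (y axis, percent, bars from 0 with 95% exact binomial intervals) in 4 classes by UMIs of Xist and of 4 Y-linked genes (x axis). Slc6a4/Ctse cells and cells low in both pairs have 35.1% and 40.7% of cells with Xist alone, and Mrgprb cells have 71.6%.

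The contrast was therefore also read within each class. Among cells with Xist alone, 8.81% were chosen, and Satb1 stood at 44.7 CPM in them against 39.2 CPM in the other cells of the class, Ifitm1 at 59.2 against 52.3 CPM and Ctsg at 178 against 110 CPM. Among cells with Y-linked transcripts alone, Satb1 stood at 45.0 against 34.5 CPM, Ifitm1 at 47.5 against 58.1 CPM and Ctsg at 304 against 328 CPM. Of 5652 genes in the Xist class, with 752 chosen cells, 28 were higher past 1.5 times (0.495%) and 49 lower (0.867%). Of 5707 genes in the Y-linked class, with 433 chosen cells, 22 were higher (0.385%) and 7 lower (0.123%). Which animals or suspensions the classes stand for cannot be told apart from the labels, and their part in the comparison with the Mrgprb cells was not tested beyond these values.

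The MULTI-seq tags were called at like shares in the chosen and the other cells. The matrix held 3 tag features, named Cafum, Matrigel and Macrophages, and the labels do not say what each marked. Of the Slc6a4/Ctse cells, 67.4% (65.3–69.3) were called for the Cafum tag alone, against 67.8% (67.0–68.5) of the other non-cycling mast cells. No tag was called in 26.9% and 26.5%, more than 1 in 4.29% and 4.14%, Matrigel alone in 0.513% and 0.898%, and Macrophages alone in 0.933% and 0.680%. Read the other way, Slc6a4/Ctse cells made up 12.3% of cells called for Cafum, 12.6% of cells with no tag, 7.48% (3.79–13.0) of 147 Matrigel cells and 16.3% (10.2–24.0) of 123 Macrophages cells.

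Markers of other cell types were low in the Slc6a4/Ctse cells, and most lists summed to less than in the other mast cells. The 15 macrophage genes summed to 176 CPM against 193 CPM, with Csf1r at 3.81 CPM and Adgre1 at 2.81 CPM. All mast cells were chosen with almost no C1q or collagen transcripts, so low macrophage and fibroblast levels follow from the rule and are no finding. The library, labelled as macrophage colonies, also held 2156 macrophage barcodes, which are not among the mast cells. The 12 fibroblast genes summed to 499 against 563 CPM and the 12 endothelial genes to 119 against 120 CPM, of which Pecam1 made 91.1 CPM. The 15 lymphocyte genes summed to 1.24 against 2.04 CPM, with 7 of them at 0, and the 12 neutrophil genes to 6.51 against 9.92 CPM, with 5 at 0. The 15 megakaryocyte and platelet genes summed to 433 against 478 CPM. Higher sums were found for 11 dendritic cell genes (89.1 against 80.2 CPM), 8 smooth muscle genes (2.74 against 2.45 CPM) and the erythroid genes, which rested on the barcode rich in globin. Doublets were called at 7.32% (6.26–8.51) of Slc6a4/Ctse cells and 5.79% (5.43–6.18) of the others. Over all barcodes 9.32% were called, while the rate expected from their number was 27.85%, so many doublets may be uncalled. Both Xist and Y-linked UMIs were found in 15.6% of Slc6a4/Ctse cells and 10.8% of the others. These shares were not thinned, and deeper cells show both more easily. The cells with both had median depths of 15379 and 12246 gene UMIs, above the 11879 and 9662 of their groups. The part of doublets in the choice of cells was not tested. Proliferation lists, which hold none of the rule's genes, summed to 316 against 329 CPM for 20 S phase genes and 610 against 602 CPM for 21 genes of G2 and mitosis.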

How the data were processed

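The authors deposited raw counts, whole numbers of UMIs per gene and cell barcode with no normalization, written by Cell Ranger (version 7.0.0), per the file headers. Build mm10 and the tools STAR, R 4.1.3 and Seurat 4.1.1 are named in the submitters' processing notes without a role. The annotation release, intronic counting, use of strand and the treatment of reads shared by near-identical genes are not given in the sources used here. Coordinates come from GENCODE M21 (GRCm38, the assembly of mm10), in which 32235 of 32285 genes were matched. The library of tags alone is not used here, and the 3 tag features in the matrix were kept out of gene totals.

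Barcodes were kept with at least 500 genes, 1000 gene UMIs and at most 10% mitochondrial UMIs. Mast cells had less than 0.1% of UMIs from C1qa, C1qb and C1qc and less than 0.2% from Col1a1, Col1a2, Col3a1 and Dcn. CPM carry exact Poisson, shares Clopper-Pearson and log2 ratios exact conditional binomial 95% intervals, which cover counting error only. A ratio of 1.5 at 20 CPM in the higher group counted as past the mark. Doublets called by Scrublet in scanpy 1.11.5 stayed in and were left out as an alternative. A tag was called at 2 times its background, or 1.4 times for Cafum. Macrophage barcodes had at least 0.3% C1q UMIs and fibroblast barcodes at least 1% of UMIs from the collagen genes and Dcn, limits set after seeing the data. The members, comparators, gene lists and alternatives were chosen with earlier results of these data known. Named genes were the rule genes and markers, the 15 highest and 15 lowest ratios at 50 CPM or more (without mitochondrial, ribosomal, Gm and Rik names), up to 5 genes per list by absolute log2 ratio, and sex-linked and defining markers. Genes past the mark against the cells low in both pairs, those named against the Mrgprb cells and those at the fixed depth were picked after their values were seen.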

Additional observations from a re-analysis of the deposited data

How the results depend on the processing

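The share of Slc6a4/Ctse cells among non-cycling mast cells (12.4%) and the numbers of genes higher and lower past the mark (20 and 22, of which 15 in either direction were on the gene lists) moved with the rule, as did the ratio of median UMIs (1.23), the log2 ratios of Ifitm1 (0.07), Satb1 (0.22), Xist (−0.46) and the Y-linked genes (0.77), and the share with the Cafum tag alone (67.4%). In all 21 settings, 76 of these values stayed within the spread or 1.5 times of the count, 91 moved past it and 1 value whose interval left out 0, that of Satb1, changed sign. Ifitm1, whose interval included 0, took either sign. The cause was not tested unless the setting itself gives it.

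From at least 2 UMIs of the pair the share was 22.8%, with 34 genes lower, a UMI ratio of 1.17, and log2 ratios of 0.0877 (Satb1), −0.56 (Xist) and 0.69 (Y-linked). From at least 5 UMIs these were 3.39%, 33 genes higher, 1.27, 0.41 and −0.30, with 70.0% Cafum. With 300 CPM of the pair in place of 3 UMIs, a choice that favours shallow cells, they were 8.67%, 85 higher, 84 lower, 24 listed, 0.782, Ifitm1 0.44, Satb1 0.74, Xist −0.38, Y-linked 0.92 and Cafum 54.8%. On thinned cells they were 4.47%, 100 higher, 67 lower, 0.840, Satb1 0.82, Xist −0.31, Y-linked 0.87 and Cafum 57.1%. Cells were also chosen on 1 random set of their UMIs, by at least 2 UMIs of the pair there in place of 3, and measured on the other set. They made up 11.3%, a share not comparable with 12.4% because of the lower threshold. The values were 10 genes higher, 7 listed, Ifitm1 −0.22, Satb1 0.11, Xist −0.40 and Y-linked 0.55. Without any proliferation UMI the values were 11.1%, 37 lower, 1.18, Ifitm1 0.40, Xist −0.49, Y-linked 0.85 and Cafum 64.2%. Without called doublets Xist was −0.51, and without cells of more than 1 tag Cafum was 70.4%. In cells with the Cafum tag alone the UMI ratio was 1.275 and Satb1 0.12. A stricter tag call gave 45.0% Cafum.

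Against the Mrgprb cells, 63 genes were higher, 138 lower and 33 listed, the UMI ratio was 1.19, Ifitm1 was 0.59, Xist −1.01 and Y-linked 1.37, and Satb1 changed sign to −0.0824. At 5 CPM, 66 genes were higher, 63 lower and 24 listed. At 50 CPM these were 8, 12 and 8, and at a ratio of 2 they were 2, 6 and 5. The next 4 settings were added after seeing the data. Against the cells low in both pairs, 9 were higher, 2 lower and 7 listed, with Ifitm1 −0.16, Satb1 0.41, Xist −0.0414 and Y-linked 0.52. Whatever the Mrgprb UMIs, the share was 17.6%, with 7 higher, 3 lower, 5 listed, a UMI ratio of 1.28, Ifitm1 −0.12, Satb1 0.33, Xist −0.0292 and Y-linked 0.58. In cells with Xist alone the share was 8.81%, with 49 lower and Ifitm1 0.18. In cells with Y-linked transcripts alone the share was 21.01%, with 7 lower, 6 listed, 1.17, Ifitm1 −0.29, Satb1 0.38 and Cafum 63.5%.

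Of single genes, Hbb-bs changed sign, to −3.25 with 300 CPM, −3.37 on thinned cells, −0.31 on the held-out set, −3.83 without any proliferation UMI, −3.47 in the Xist class and −0.0611 in the Y-linked class, and Nampt turned to 0.18 in the Y-linked class. No paired analysis was possible because all cells come from 1 library. At the depth of this library a cell holds few UMIs of the pair, which limits how well single cells are placed.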

Other observations

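The remaining gene lists held few ratios past 1.5 times in the Slc6a4/Ctse cells. None of 14 genes of serglycin and heparin synthesis, which make the matrix that holds granule contents, passed, with Hs3st1 farthest from 1 at 43.4 against 58.5 CPM, Ndst2 at 220 against 197 CPM and Srgn at 5652 against 5789 CPM. None of 20 genes of exocytosis and the granule membrane passed either. Unc13b, a priming factor of vesicle fusion, stood at 68.2 against 56.3 CPM, Lyst at 148 against 125 CPM and Vamp2 at 38.8 against 41.6 CPM. The median log2 ratio of these lists was 0.02 and −0.03, beside 0.01 over all genes, of which 54.6% had a ratio above 1.

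Of 13 adhesion genes, none passed and 9 had a ratio below 1. The integrin gene Itga4 stood at 26.4 against 36.2 CPM and the tetraspanin gene Cd81 at 160 against 210 CPM, with 49.0 and 241 CPM in the Mrgprb cells and 29.2 and 193 CPM in the cells low in both pairs. Itga9 stood at 163 against 139 CPM. Among 10 receptors for small ligands, 8 had a ratio above 1, such as Gpr183 (116 against 98.0 CPM) and P2rx4 (221 against 189 CPM), and none passed. Of 7 interferon response genes, 6 had a ratio above 1, and Usp18 was the farthest from 1 at 23.9 against 19.4 CPM.

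All 5 genes of iron and metal handling had a ratio below 1, and they include some of the most abundant transcripts of these cells. Ferritin heavy chain (Fth1) stood at 7473 CPM (7441–7505) against 8838 CPM (8824–8852) and ferritin light chain (Ftl1) at 7084 against 7622 CPM. The Fth1 level was 9792 CPM in the Mrgprb cells and 8313 CPM in the cells low in both pairs. Of 13 glycolysis genes, 8 had a ratio below 1 and none passed, with Pgam1 at 135 against 168 CPM and Hk2 at 69.7 against 56.6 CPM. Of 8 progenitor genes, none passed, with Cd34 at 72.7 against 68.2 CPM.

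The Slc6a4/Ctse cells with Slc6a4 UMIs alone and those with UMIs of both genes had different Ifitm1 levels, 41.2 and 70.3 CPM, with 70.1 CPM in the 75 cells with Ctse alone. As 52 cells held 75.6% of the Ifitm1 UMIs, such sums rest on few cells, and no test was made.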
